A study of Drosophila melanogaster with 8 samples.

Results

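The proteasome subunit genes of the fly Drosophila melanogaster made up 48 of the 18984 genes and transposons measured in total RNA from dissected ovaries. They were chosen by name, as every gene whose symbol starts with Prosalpha, Prosbeta, Rpn or Rpt followed by a number. Of these, 32 have a symbol that ends in the subunit number and are called canonical here, and 16 carry a further suffix (T, T1, T2, R, R1 or R2) that marks a paralog. The canonical set held 7 core alpha, 7 core beta, 10 base and 8 lid genes. The libraries came from ovaries of egt17 flies, of egt8 flies and, as 2 separate libraries, of Oregon-R wild-type flies, all kept at 25 °C. The labels call both egt alleles null, and the series title names the mutated gene boot; that egt and boot are the same gene was assumed here. Oregon-R is a standard wild-type stock. Each allele was sequenced once, and the alleles together were taken as 2 replicates of egt null, against 2 of wild type. The labels give no age for the flies, no number of ovaries in a library and no parent strain for either allele. Nothing in the labels says that the wild-type libraries came from separate flies.

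The proteasome degrades proteins that carry ubiquitin chains. Its core particle is a barrel with alpha rings at its ends, which gate the entrance, and beta rings inside, in which Prosbeta1, Prosbeta2 and Prosbeta5 do the cutting. The regulatory particle sits on the barrel: the Rpt ATPases of its base unfold the substrate, and the lid carries Rpn11, the enzyme that removes the ubiquitin. Every canonical subunit is needed for the complete particle, and in flies the factor Cnc raises the subunit genes together when proteasomes are short. In fly testes several subunits are exchanged for paralogs made only there.

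Total RNA was deposited as FPKM (fragment counts divided by transcript length and library depth), a unit meant to correct for length. Between libraries of the same genotype FPKM still moved with gene span, as given below. Comparisons of levels between genes of unlike length carry that limit. Depth estimated from the smallest steps of the values was about 6.09M fragments in egt17, 15.8M in egt8, 6.26M in wild type 1 and 16.5M in wild type 2. Boot, the gene taken to be mutated, had 40.6 FPKM in egt17 and 52.1 FPKM in egt8, against 88.6 FPKM in wild type 1 and 89.7 FPKM in wild type 2. The libraries fell into the pairs egt17 with wild type 1 and egt8 with wild type 2, which share their depth and most of their profile, and the labels name no batch for this. All 10 germline markers passed the filter of 1 FPKM in at least 2 libraries, while 22 of 27 testis germline markers stayed under 1 FPKM in every library.

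All 32 canonical genes passed that filter, and they were among the more abundant RNAs of the ovary. Their median FPKM was 285 in egt17 and 184 in egt8, against 295 in wild type 1 and 182 in wild type 2. Among all 8780 tested genes and transposons, ranked within a library, the median canonical gene stood at percentile 96.5 in egt17, 95.5 in egt8, 96.6 in wild type 1 and 95.4 in wild type 2. Together the canonical genes took 1.23% and 1.01% of all FPKM in egt17 and egt8 and 1.31% and 1.07% in wild type 1 and wild type 2. The levels thus split by library pair and were close between genotypes inside each pair. From the estimated depth and gene span, the least covered canonical gene in every library was Prosalpha1, with roughly 742 fragments in egt17, 1652 in egt8, 714 in wild type 1 and 1628 in wild type 2. Gene span includes introns, and summed transcripts may share reads, so these counts may be too high. Counting alone then gives an error of about 3.74% or more for Prosalpha1 in wild type 1.

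**Figure D1:**
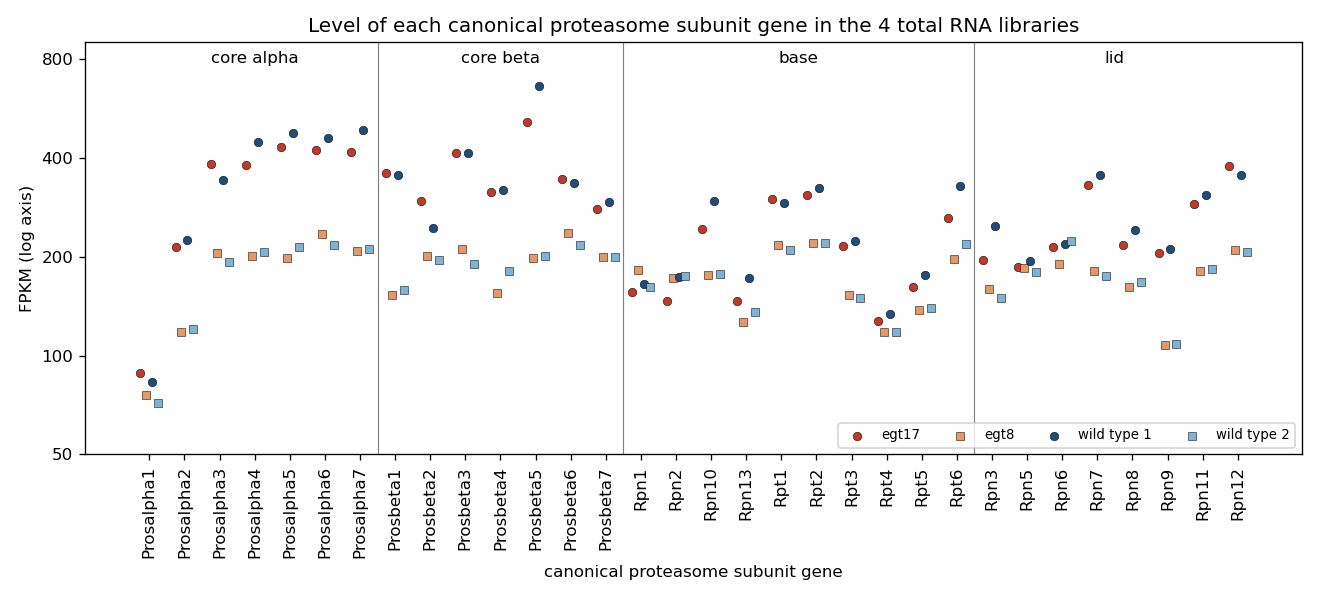
FPKM (log axis) of the 32 canonical proteasome subunit genes, grouped by subcomplex, with 1 point for each library: red circles for egt17, orange squares for egt8, dark blue circles for wild type 1 and light blue squares for wild type 2. Circles lie above squares for 29 of the 32 genes, and red lies close to dark blue, and orange to light blue, in most of them.

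The alpha genes, which encode the outer rings and the gate, had a median of 383 FPKM in egt17 and 201 FPKM in egt8, against 447 FPKM in wild type 1 and 207 FPKM in wild type 2. Prosalpha6 had the highest mean level of the class, with 424 FPKM in egt17 and 234 FPKM in egt8, against 461 FPKM in wild type 1 and 218 FPKM in wild type 2. Prosalpha3 had 383 FPKM in egt17 and 205.5 FPKM in egt8, against 343 FPKM in wild type 1 and 193 FPKM in wild type 2. In both genes the null and wild-type ranges overlapped, and the high values were those of egt17 and wild type 1. Prosalpha4 had 382 FPKM in egt17 and 201 FPKM in egt8, against 447 FPKM in wild type 1 and 207 FPKM in wild type 2, again with overlapping ranges.

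Prosalpha1 was the lowest canonical gene in all 4 libraries, and its level cannot be taken at face value. It had 88.6 FPKM in egt17 and 76.1 FPKM in egt8, against 82.9 FPKM in wild type 1 and 71.8 FPKM in wild type 2. Its paralog Prosalpha1R had 89.8 FPKM in egt17 and 77.0 FPKM in egt8, against 83.1 FPKM in wild type 1 and 71.4 FPKM in wild type 2. The values of the copies differed by 1.42% in egt17, 1.15% in egt8, 0.343% in wild type 1 and 0.556% in wild type 2, less than the counting error of Prosalpha1. Both genes lie on chromosome 2R in Release 6 of the fly genome, Prosalpha1 from 7827303 to 7828678 and Prosalpha1R from 7830413 to 7831771, with 1734 bases between them. How reads that match several places were counted is not given in the sources used here, so the value of each copy is uncertain. The sum of the copies was 178 FPKM in egt17 and 153 FPKM in egt8, against 166 FPKM in wild type 1 and 143 FPKM in wild type 2, which was within the range of the other alpha genes only in egt8 and wild type 2.

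The beta genes had a median of 345 FPKM in egt17 and 199.9 FPKM in egt8, against 336 FPKM in wild type 1 and 196 FPKM in wild type 2. Prosbeta5, the subunit with chymotrypsin-like activity, lies on chromosome 2R from 10819978 to 10821178 and had the highest mean level of all canonical genes. It had 514 FPKM in egt17 and 198 FPKM in egt8, against 663 FPKM in wild type 1 and 201 FPKM in wild type 2. Its first place came from the egt17 and wild type 1 libraries, since in egt8 and wild type 2 the highest beta level was that of Prosbeta6. Prosbeta2, the subunit with trypsin-like activity, had the lowest mean level of the class, with 297 FPKM in egt17 and 201 FPKM in egt8, against 246 FPKM in wild type 1 and 196 FPKM in wild type 2. Prosbeta1, the subunit with caspase-like activity, had 361 FPKM in egt17 and 154 FPKM in egt8, against 355 FPKM in wild type 1 and 159 FPKM in wild type 2. Prosbeta1 thus lay above Prosbeta2 in egt17 and wild type 1 and below it in egt8 and wild type 2. Of the other beta genes, Prosbeta3 had 415 FPKM in egt17 and 211 FPKM in egt8, against 414 FPKM in wild type 1 and 191 FPKM in wild type 2. Prosbeta6 had 345 FPKM in egt17 and 236 FPKM in egt8, against 336 FPKM in wild type 1 and 218 FPKM in wild type 2. The null and wild-type ranges overlapped in all 7 beta genes. In each of them egt17 and wild type 1 lay above egt8 and wild type 2, an order in which the ranges must overlap.

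The base genes had lower median levels than the core genes, with a median of 189 FPKM in egt17 and 174 FPKM in egt8, against 200.001 FPKM in wild type 1 and 169 FPKM in wild type 2. The core genes are short, and FPKM moved with span between the pairs, so the size of this gap is uncertain. Rpt2, an ATPase of the ring that opens the gate, was highest by mean level, with 308 FPKM in egt17 and 220.1 FPKM in egt8, against 325 FPKM in wild type 1 and 220.3 FPKM in wild type 2. Rpt4, another ATPase of that ring, was lowest, with 127 FPKM in egt17 and 118 FPKM in egt8, against 134 FPKM in wild type 1 and 118 FPKM in wild type 2. The ATPases form a ring with 1 copy of each, and their RNA levels were up to more than 2-fold apart in the egt17 and wild type 1 libraries. Rpt6, also an ATPase, had 263 FPKM in egt17 and 197 FPKM in egt8, against 328 FPKM in wild type 1 and 219 FPKM in wild type 2. The ubiquitin receptor Rpn10 had 244 FPKM in egt17 and 176 FPKM in egt8, against 296 FPKM in wild type 1 and 177 FPKM in wild type 2. Rpn13, another ubiquitin receptor, had 147 FPKM in egt17 and 127 FPKM in egt8, against 172 FPKM in wild type 1 and 136 FPKM in wild type 2. For each of these 3 genes the null value was the lower in its library pair, and the ranges of the genotypes overlapped.

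Rpn2, a large scaffold of the base, had 147 FPKM in egt17 and 172 FPKM in egt8, against 174 FPKM in wild type 1 and 175 FPKM in wild type 2. Both null values lay below both wild-type values, but by little in egt8. Rpn1, the other scaffold, had 156 FPKM in egt17 and 183 FPKM in egt8, against 165 FPKM in wild type 1 and 162 FPKM in wild type 2, with overlapping ranges. The scaffold genes have the longest spans of the base, 3732 bases for Rpn2 and 3110 bases for Rpn1.

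The lid genes had a median of 216 FPKM in egt17 and 181 FPKM in egt8, against 245 FPKM in wild type 1 and 178 FPKM in wild type 2. Rpn12 was highest by mean level, with 377 FPKM in egt17 and 209 FPKM in egt8, against 355 FPKM in wild type 1 and 207 FPKM in wild type 2. Rpn9 was lowest, with 206 FPKM in egt17 and 108 FPKM in egt8, against 212 FPKM in wild type 1 and 108 FPKM in wild type 2. Both are structural lid subunits, and both levels again followed the library pair. The deubiquitinase Rpn11 had 290 FPKM in egt17 and 182 FPKM in egt8, against 309 FPKM in wild type 1 and 184 FPKM in wild type 2. Rpn6, a lid subunit that touches the core particle, had 214 FPKM in egt17 and 190.0 FPKM in egt8, against 218 FPKM in wild type 1 and 224 FPKM in wild type 2. Rpn6 and Rpn2 were the only canonical genes whose genotypes did not overlap.

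Canonical levels were more even in egt8 and wild type 2 than in egt17 and wild type 1. The coefficient of variation over the 32 genes was 37.8% in egt17 and 21.7% in egt8, against 40.7% in wild type 1 and 21.3% in wild type 2. The median core gene stood 1.73-fold above the median gene of the regulatory particle in egt17 and 1.12-fold in egt8, against 1.504-fold in wild type 1 and 1.13-fold in wild type 2. Across the 32 genes, log2 levels correlated at 0.97 between egt17 and wild type 1 and at 0.97 between egt8 and wild type 2 (Pearson). The correlation was 0.75 between egt17 and egt8 and 0.76 between wild type 1 and wild type 2. These describe how similar the libraries were, and the genes are not independent replicates.

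No canonical gene passed the test between egt null and wild type. Differences were tested with limma on log2(FPKM + 1) across all 8780 genes and transposons, two-sided, and a gene counted as called at a Benjamini-Hochberg adjusted p under 0.05. Of the 34 proteasome genes tested, 0 were called and 0 had an unadjusted p under 0.05, where limma called 0% of all genes and gave 1.89% an unadjusted p under 0.05. With the library pair as a term in limma, 0 of the 34 were called and 0 had an unadjusted p under 0.05, beside 0.148% of all genes called and 13.2% at that unadjusted p. The lowest limma adjusted p of a canonical gene was 0.9999 without the term and 0.506 with it, the second for Rpt6. These p-values weigh the differences against the spread among 4 libraries only, and that spread may be technical.

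The pooled differences were small, and the library pair set how narrowly they could be bounded. All 32 canonical genes had a pooled log2 difference within 0.25 of 0. The median was -0.036, beside -0.062 over all tested genes. In the null libraries 8 canonical genes were higher and 24 lower, beside 3690 higher and 5090 lower of all 8780 tested. After scaling each library to the median gene the direction turned, with a median of 0.018, 17 higher and 15 lower. In limma without the term the SE of a gene was 0.30 to 0.76, and the 95% intervals of the differences reached from -2.17 to 1.77. With the pair as a term the SE was 0.13 to 0.16, and the 95% intervals ran from -0.58 at the lowest to 0.51 at the highest. The pairs were recognised from these same libraries, so the intervals with the term may be too narrow. The canonical median was -0.32 without egt17 and -0.35 without wild type 2, and it turned to 0.28 without egt8 and to 0.29 without wild type 1. In ovaries measured in bulk, fewer cells of a type and less RNA per cell cannot be told apart.

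**Figure D2:**
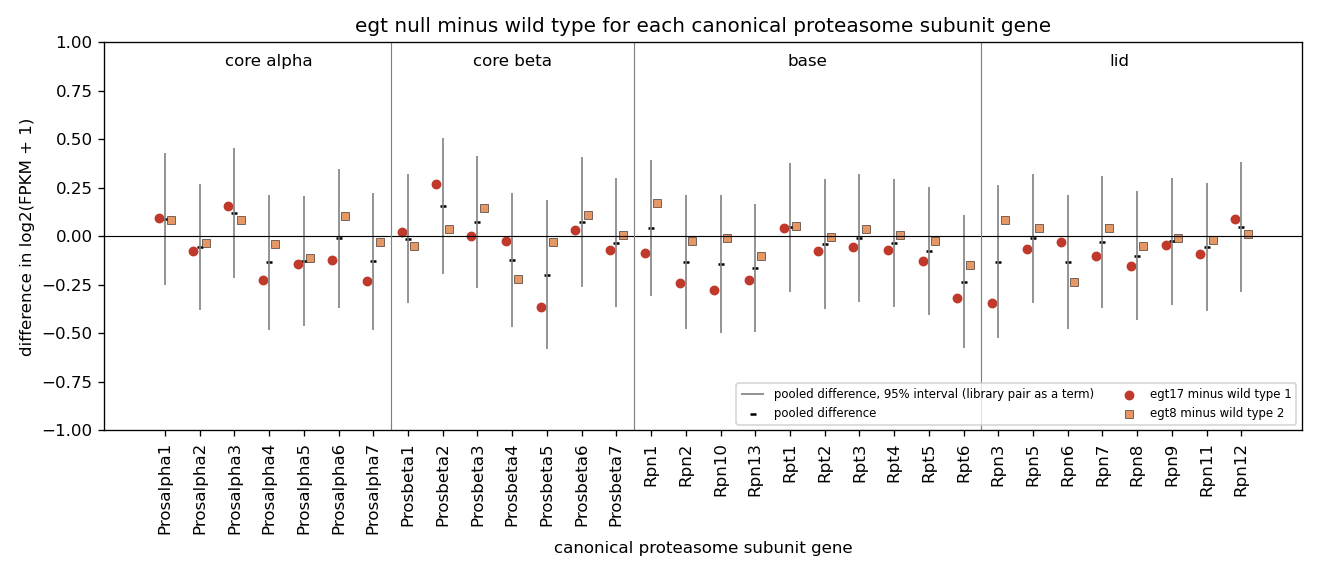
Difference in log2(FPKM + 1) between egt null and wild type for the 32 canonical genes: red circles show egt17 minus wild type 1, orange squares egt8 minus wild type 2, black dashes the pooled difference and grey lines its 95% interval from limma with the library pair as a term. Every grey line crosses 0, the red circles range from -0.37 to 0.27 and the orange squares from -0.24 to 0.17.

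By rule, the 5 largest pooled differences in each direction are given with the value of each pair. Rpt6 had the largest negative one, -0.23 ± 0.38 (SE, n = 2 against 2, limma adjusted p = 0.9999), with -0.32 for egt17 over wild type 1 and -0.15 for egt8 over wild type 2. Prosbeta5 followed at -0.20 ± 0.76, with -0.37 for egt17 and -0.027 for egt8. The negative difference of Prosbeta5 thus rested on the first pair. Rpn13 (-0.16 ± 0.32), Rpn10 (-0.14 ± 0.41) and Prosalpha4 (-0.13 ± 0.55) were likewise further below wild type in egt17 than in egt8. The largest positive difference was that of Prosbeta2, 0.16 ± 0.36, with 0.27 for egt17 and 0.040 for egt8. Prosalpha3 (0.12 ± 0.49), Prosalpha1 (0.089 ± 0.31), Prosbeta3 (0.074 ± 0.56) and Prosbeta6 (0.074 ± 0.40) followed, each above wild type in both pairs. Every one of these 10 differences was smaller than its SE without the term.

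Within the pairs, the canonical median was -0.076 for egt17 minus wild type 1, with 24 genes below and 8 above wild type. It was -0.0046 for egt8 minus wild type 2, with 17 below and 15 above, and with each library scaled to its median gene it was 0.10, with 4 below and 28 above. Over all tested genes the medians were 0.0027 in the first pair and -0.14 in the second before scaling. The canonical genes were thus slightly below the median gene in egt17 and slightly above it in egt8, neither of which was tested. Lower in both pairs were 16 canonical genes, beside 37.1% of all tested genes, and 7 were higher in both, beside 24.8%. The other 9 went opposite ways in the pairs. After scaling, 4 were lower in both pairs, beside 32.9% of all tested genes, and 8 were higher in both, beside 29.8%.

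Few canonical genes had genotypes that did not overlap, but this count was tied to the library pairs. In 29 of 32 canonical genes both egt17 and wild type 1 lay above both egt8 and wild type 2. In that order the genotypes must overlap, so the unscaled counts say nothing about genotype in those genes. Both null values lay below both wild-type values for 2 of 32 canonical genes, Rpn2 and Rpn6, beside 11.7% of all tested genes, and above them for 0, beside 9.32%. Rpn2 had a log2 difference of -0.13 ± 0.30 and Rpn6 one of -0.13 ± 0.30 (SE, n = 2 against 2). In Rpn2 the difference came mainly from egt17 (-0.24, beside -0.023 for egt8), and in Rpn6 from egt8 (-0.24, beside -0.031 for egt17). After scaling, 0 canonical genes lay below, beside 10.3% of all tested genes, and 1 above, beside 11.2%.

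By subcomplex, the pooled median difference was -0.055 for alpha, -0.012 for beta, -0.057 for base and -0.042 for lid genes. Scaling moved these to -0.0020, 0.041, -0.0030 and 0.011, which turned the direction of beta and lid. Lower in the null libraries without scaling were 5 of 7 alpha, 4 of 7 beta, 8 of 10 base and 7 of 8 lid genes, beside 5090 of all 8780 tested. The differences between subcomplexes were not tested.

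The library pair, by contrast, separated nearly the whole set. In 29 of 32 canonical genes both egt17 and wild type 1 lay above both egt8 and wild type 2, beside 42.4% of all tested genes, and in 0 they lay below, beside 27.1%. The exceptions were Rpn1, Rpn2 and Rpn6, with spans of 3110, 3732 and 2745 bases. The FPKM ratio of egt17 over egt8 had a median of 1.86 for alpha, 1.97 for beta, 1.25 for base and 1.47 for lid genes. The ratio of wild type 1 over wild type 2 had a median of 2.12 for alpha, 1.77 for beta, 1.32 for base and 1.67 for lid genes. The core genes thus differed most between the pairs and the base genes least, in both genotypes. Prosbeta5 had the highest ratio of any canonical gene, 2.60 for egt17 over egt8 and 3.29 for wild type 1 over wild type 2. Rpn2 had the lowest for egt17 over egt8, 0.852, and Rpn6 the lowest for wild type 1 over wild type 2, 0.976. Because the pairs were recognised from these data and from their depth, these values are descriptions and were given no test.

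The size of the pair difference moved with gene length. Over the 32 canonical genes, egt17 minus egt8 correlated with the log2 of the gene span (start to end in the annotation, introns included) at -0.73 (Pearson; Spearman -0.79), and wild type 1 minus wild type 2 at -0.64 (Spearman -0.72). For egt null minus wild type the values were -0.23 and -0.26. These are descriptions across genes that share the same libraries. The 4 canonical genes under 1000 bases had a median log2 difference of 0.996 between egt17 and egt8 and of 0.97 between wild type 1 and wild type 2. The 13 genes from 1000 to 1500 bases had 0.85 and 0.90, and the 9 genes from 1500 to 2000 bases had 0.41 and 0.56. The 3 genes from 2000 to 3000 bases had 0.17 and 0.11, and the 3 from 3000 to 5000 bases had -0.23 and 0.027.

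Over all tested protein-coding genes the difference also fell with span. Their median was 1.19 for egt17 minus egt8 and 1.06 for wild type 1 minus wild type 2 under 1000 bases (773 genes), 0.83 and 0.69 from 1000 to 1500 bases (1025 genes), and 0.57 and 0.47 from 1500 to 2000 bases (973 genes). From 2000 to 3000 bases it was 0.33 and 0.22 (1327 genes), and from 3000 to 5000 bases -0.021 and -0.11 (1272 genes). At 5000 bases or more, where there was no canonical gene, it was -0.60 and -0.61 (2278 genes). The core genes are short, and most of the base genes lie between 1500 and 2000 bases. Whether the canonical genes differed from all genes of like span was not tested. Prosbeta5, Rpn8 and Rpn9 were among those above the median of their span class and Prosalpha1 and Rpn5 among those below, picked after their values were seen. Rpn9, with a span of 2088 bases, had a difference of 0.93 between egt17 and egt8 and of 0.96 between wild type 1 and wild type 2. Rpn5, with almost the same span of 2077 bases, had 0.0040 and 0.11.

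**Figure D3:**
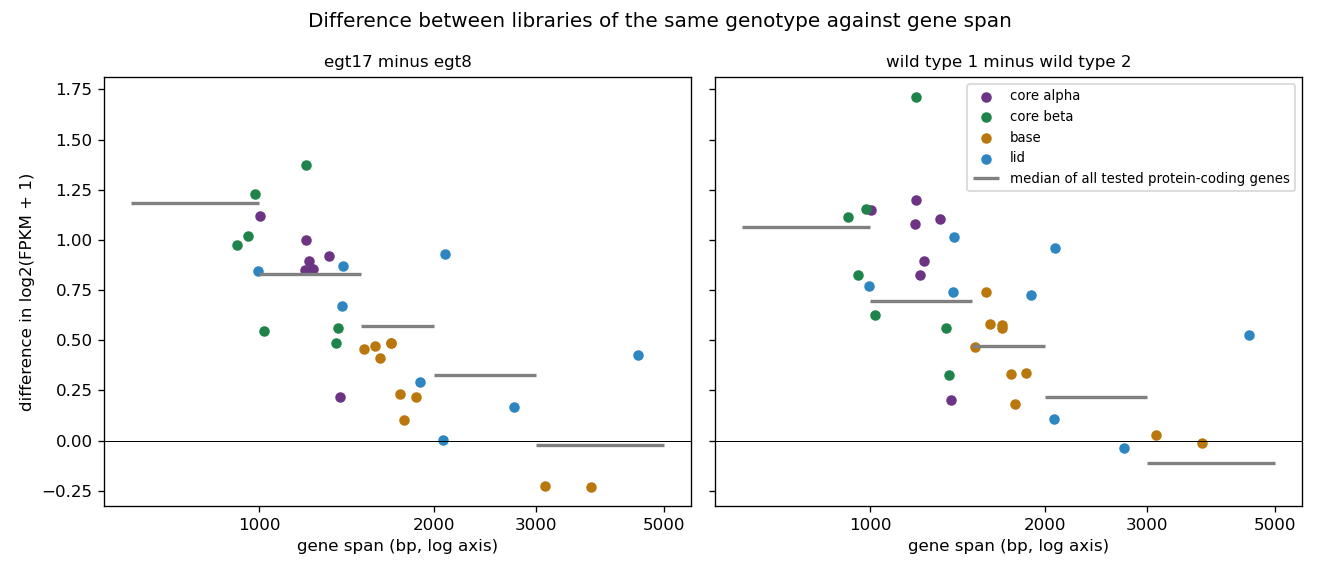
Difference in log2(FPKM + 1) between libraries of the same genotype, egt17 minus egt8 on the left and wild type 1 minus wild type 2 on the right, against gene span in base pairs (log axis) for the 32 canonical genes, coloured by subcomplex. Grey bars give the median of all tested protein-coding genes in each span class, and both points and bars fall with span, with Prosbeta5 the highest point at 1.37 on the left and 1.71 on the right.

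Summed levels of the cell type markers moved with the pairs as well. The 10 germline markers had a summed level of 975 FPKM in egt17 and 1515 FPKM in egt8, against 972 FPKM in wild type 1 and 1409 FPKM in wild type 2. The 10 follicle cell markers had a summed level of 136 FPKM in egt17 and 229 FPKM in egt8, against 128 FPKM in wild type 1 and 193 FPKM in wild type 2. Both sums were lower where the proteasome genes were higher. In single genes, 7 of the 10 germline markers were lower in both egt17 and wild type 1 than in egt8 and wild type 2 and 1 was higher. Of the 9 tested follicle cell markers 7 were lower and 0 higher. Of all tested genes 27.1% were lower in this way and 42.4% higher. The germline sum was largely osk, with 432 FPKM in egt17 and 749 FPKM in egt8, against 305 FPKM in wild type 1 and 673 FPKM in wild type 2. The gene nanos went the other way, with 163 FPKM in egt17 and 124 FPKM in egt8, against 279 FPKM in wild type 1 and 129.8 FPKM in wild type 2. The 10 muscle markers did not follow the pairs, with 83.9 FPKM in egt17 and 457 FPKM in egt8, against 254 FPKM in wild type 1 and 56.0 FPKM in wild type 2. Of these markers 10 germline, 9 follicle cell and 8 muscle genes passed the filter, and none was at 0 in all 4 libraries. The 10 hemocyte and fat body markers had a summed level of 2.25 FPKM in egt17 and 26.1 FPKM in egt8, against 5.68 FPKM in wild type 1 and 6.86 FPKM in wild type 2. These sums were also lower in egt17 and wild type 1, but the wild-type libraries were close and egt8 stood apart. The order of the wild-type sums rested on apolpp, with 0.210 FPKM in wild type 1 and 4.82 FPKM in wild type 2. Pxn went the other way, with 4.60 FPKM in wild type 1 and 1.05 FPKM in wild type 2. Of these 10 markers, only these 2 passed the filter, and 1 of them was lower in both egt17 and wild type 1 than in egt8 and wild type 2. The part of depth, gene length and cell makeup in the pair difference was not tested.

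The paralogs were close to absent, apart from Prosalpha1R and Rpt3R. Of 16 paralogs, 9 were listed at 0 in all 4 libraries, 5 were above 0 but at most 0.113 FPKM, and 2 reached 1 FPKM. A count of 3 fragments, the limit that 0 allows, corresponds to about 0.277 to 0.559 FPKM in egt17, 0.107 to 0.216 FPKM in egt8, 0.270 to 0.544 FPKM in wild type 1 and 0.102 to 0.207 FPKM in wild type 2, depending on the gene's span. These limits rest on the estimated depth and on gene span with introns, so they may be too low, and they cover counting error only. Prosalpha6T, a testis subunit without which fly males are sterile, was among those listed at 0, as were Prosalpha4T1, Prosalpha4T2, Prosbeta2R1, Prosbeta4R1, Prosbeta4R2, Prosbeta5R2, Rpn12R and Rpn13R.

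Rpt3R, a paralog of the ATPase Rpt3, had 1.60 FPKM in egt17 and 2.74 FPKM in egt8, against 4.44 FPKM in wild type 1 and 1.14 FPKM in wild type 2. The genotypes overlapped, with the highest value in wild type 1 and the lowest in wild type 2. The log2 difference was -0.13 ± 0.63, with -1.07 for egt17 and 0.80 for egt8. Rpt3 itself had 215 FPKM in egt17 and 153 FPKM in egt8, against 223 FPKM in wild type 1 and 149 FPKM in wild type 2, so that its paralog was at most a small fraction of it.

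Traces of paralogs were seen in more genes in egt8 than in the other libraries. Of the 14 paralogs under 1 FPKM, 4 were above 0 in egt8 and 1 in egt17, against 1 in wild type 1 and 2 in wild type 2. Prosalpha3T (0.0706 FPKM), Prosbeta2R2 (0.0952 FPKM) and Rpt4R (0.0869 FPKM) were above 0 in egt8 only, at about 1 to 3 fragments each. Prosbeta5R1 was above 0 in wild type 2 only, and Rpt6R in every library. The low testis germline markers moved the same way: of the 22 under 1 FPKM everywhere, 18 were above 0 in egt8 and 4 in egt17, against 1 in wild type 1 and 4 in wild type 2. They summed to 4.34 FPKM in egt8 and 0.600 FPKM in egt17, against 0.0859 FPKM in wild type 1 and 0.383 FPKM in wild type 2. Over all 27 the sum was instead lowest in egt8, with 65.5 FPKM there and 78.6 FPKM in egt17, against 73.2 FPKM in wild type 1 and 102 FPKM in wild type 2. Most of that sum was twe, a phosphatase gene also used in female meiosis, with 48.7 FPKM in egt8 and 71.4 FPKM in egt17, against 67.5 FPKM in wild type 1 and 94.1 FPKM in wild type 2. Taf12L was lowest in egt8 as well, with 0.106 FPKM there and 1.38 FPKM in egt17, against 2.41 FPKM in wild type 1 and 1.12 FPKM in wild type 2. The part of these markers in the paralog traces was not tested. All values of the 14 paralogs under 1 FPKM lay below the level of 3 fragments. That level is the limit for a count of 0, and it does not show that a paralog above 0 was absent. At so few fragments the differences between libraries are uncertain.

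Genes around the proteasome gave a similar picture. Of the 13 tested assembly factors and binding partners, 5 were higher and 8 lower in the null libraries, 0 were called by limma and 0 had an unadjusted p under 0.05, and the median log2 difference was -0.035, beside -0.062 over all tested genes. Sem1 is a small lid subunit whose name the rule does not cover, and its gene spans 482 bases. It had 793 FPKM in egt17 and 135 FPKM in egt8, against 789 FPKM in wild type 1 and 158 FPKM in wild type 2. The pair difference was larger than in any canonical gene, at 2.55 between egt17 and egt8 and 2.32 between wild type 1 and wild type 2, while the genotype difference was -0.11 ± 1.14. Pomp, which helps the core particle to mature, had 93.0 FPKM in egt17 and 71.7 FPKM in egt8, against 94.8 FPKM in wild type 1 and 73.9 FPKM in wild type 2. REG, an activator cap of nuclear proteasomes, had 336 FPKM in egt17 and 217 FPKM in egt8, against 261 FPKM in wild type 1 and 198 FPKM in wild type 2 (log2 difference 0.25 ± 0.38). The shuttle protein gene Rad23 had 93.9 FPKM in egt17 and 104 FPKM in egt8, against 95.6 FPKM in wild type 1 and 139 FPKM in wild type 2 (-0.22 ± 0.34).

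Ubiquitin genes and the segregase machinery had 6 higher and 13 lower members of 19 tested, with a median of -0.050, and limma called 0, with 0 at an unadjusted p under 0.05 and 3 with the pair as a term, beside 13.2% of all tested genes. Ubi-p63E, a polyubiquitin gene, had 367 FPKM in egt17 and 304 FPKM in egt8, against 499 FPKM in wild type 1 and 451 FPKM in wild type 2, and fzy, an activator of the anaphase-promoting complex, had a difference of -0.54 ± 0.34. RpL40, which encodes ubiquitin fused to a ribosomal protein, had 4993 FPKM in egt17 and 2509 FPKM in egt8, against 3722 FPKM in wild type 1 and 1842 FPKM in wild type 2. These ubiquitin genes thus differed in direction, with Ubi-p63E below and RpL40 above wild type in both pairs. Neither was called (limma adjusted p of 0.9999 each, and of 0.283 and 0.460 with the pair as a term).

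The list of Cnc, its partners and its stress targets had 4 higher and 8 lower members of 12 tested, with a median of -0.072, and limma called 0, with 0 at an unadjusted p under 0.05 and 2 with the pair as a term, beside 13.2% of all tested genes. The gene of Cnc itself, cnc, had 35.7 FPKM in egt17 and 81.6 FPKM in egt8. It had 29.6 FPKM in wild type 1 and 102 FPKM in wild type 2, opposite to the proteasome genes between the pairs. The cnc gene spans 41132 bases. Its log2 difference was -1.17 for egt17 minus egt8 and -1.75 for wild type 1 minus wild type 2. The medians of all tested protein-coding genes of 5000 bases or more were also negative, -0.60 and -0.61. The part of span in the cnc values was not tested. The genotype difference of cnc was -0.027 ± 0.74. The glutathione transferase gene GstD1, a common readout of Cnc activity, had 1304 FPKM in egt17 and 794 FPKM in egt8, against 1054 FPKM in wild type 1 and 426 FPKM in wild type 2, and the difference of 0.60 ± 0.59 was not called. Heat shock proteins had 11 higher and 9 lower members of 20 tested, with a median of 0.073, and limma called 0, with 0 at an unadjusted p under 0.05 and 4 with the pair as a term, beside 13.2% of all tested genes. Hsp67Ba, a gene of the small heat shock protein family, had the largest difference of the list, 1.25 ± 0.49, with 2.72 FPKM in egt17 and 4.06 FPKM in egt8, against 1.28 FPKM in wild type 1 and 0.451 FPKM in wild type 2. Its null values lay above its wild-type values, and it was not called (limma adjusted p = 0.9999, and 0.320 with the pair as a term). Hsp23, another small heat shock protein gene, had 36.9 FPKM in egt17 and 9.93 FPKM in egt8, against 17.9 FPKM in wild type 1 and 5.28 FPKM in wild type 2. The chaperone gene DnaJ-1 had 124 FPKM in egt17 and 90.7 FPKM in egt8, against 161 FPKM in wild type 1 and 165 FPKM in wild type 2.

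Other complexes with fixed composition were set beside the proteasome. The COP9 signalosome, a relative of the lid that removes Nedd8 from cullins, had 4 higher and 4 lower members of 8 tested, with a median of 0.017. The CCT chaperonin, which folds actin and tubulin, had 7 of 8 members higher, with a median of 0.16, and limma called 0 members of either, with 0 at an unadjusted p under 0.05 with or without the pair term. The translation factor eIF3, whose subunits share domains with the lid, had 13 of 13 tested members higher, with a median of 0.25, and limma called 0 with or without the pair term, with 0 at an unadjusted p under 0.05 without it and 2 with it, beside 13.2% of all tested genes. The eIF3 median was -0.056 without egt17 and -0.15 without wild type 2. In eIF3, 12 of 13 members were higher in both pairs, beside 7 of 32 canonical proteasome genes and 24.8% of all tested genes. Whether these complexes differ from the proteasome was not tested. Between the pairs the eIF3 median was 0.63 for egt17 minus egt8 and 0.78 for wild type 1 minus wild type 2, close to the proteasome values of 0.52 and 0.67.

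**Figure D4:**
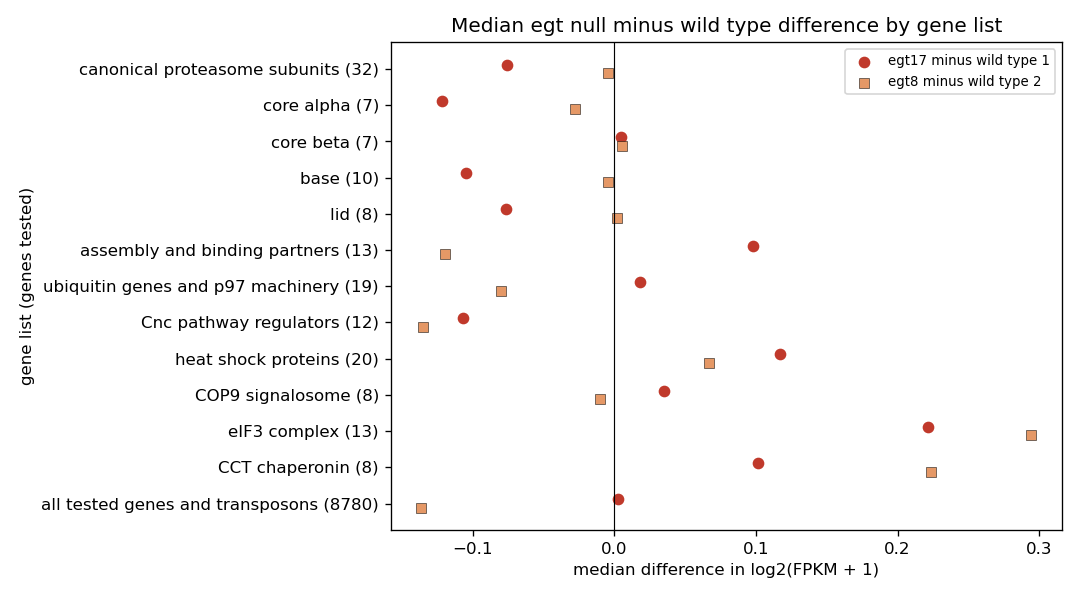
Median difference in log2(FPKM + 1) for egt17 minus wild type 1 (red circles) and egt8 minus wild type 2 (orange squares) in the canonical proteasome genes, their subcomplexes, related gene lists and all tested genes and transposons, with the number of genes tested in brackets. The canonical genes lie at -0.076 and -0.0046, and the eIF3 complex lies furthest right at 0.22 and 0.29.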

How the data were processed

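Only total RNA was used: 4 libraries of dissected ovaries, 2 egt null (egt17, egt8) and 2 wild type. The values were deposited by the authors as FPKM plus 1 (35502 rows), and 1 was taken off. Bowtie2 2.2.4 and dm6 appear, per the submitters' processing notes, without a role, and how reads were counted, with what strand or multiple mapping setting, was not given in the sources used here. Of 35327 transcript rows, 32952 matched a RefSeq gene of Release 6. Transcripts were summed by gene, which may count shared reads more than once; 15 of 32 canonical genes had more than 1 transcript. Depth was estimated from the steps of low values; 45.3% to 52.6% of those checked came out whole within 0.05.

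The 8780 genes and transposons reaching 1 FPKM in 2 or more libraries entered limma 3.58.1 (R 4.3.3), on log2(FPKM + 1) with a mean-variance trend, two-sided, Benjamini-Hochberg adjusted, after the procedure was tested on simulated data. The simulation had independent noise, large changes and no library pair effect. It does not show how small a difference could be found here. Python 3.11.15, numpy 2.4.6, pandas 2.3.3 and matplotlib 3.10.9 were used. The alternatives changed the pseudocount, filter, transcript choice, scaling, trend, pair term or libraries. The numbers of the labels do not pair the libraries: the pair term rests on depth and resemblance.

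Named genes followed a rule: the highest and lowest of each subcomplex, the 5 largest differences each way, genes whose genotypes do not overlap, paralogs at 1 FPKM or more, and from the other lists up to 5 genes by difference or level, of which some are given. Rpn1, Rpn5, Rpn8, Rpn11, Rpt3, Prosbeta1, Pomp, cnc, marker genes, paralogs under 1 FPKM and Boot were added. Members, lists and tests were chosen with earlier results of these data known. Promoter motifs and sequences were not analysed here, nor was small RNA.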

Additional observations from a re-analysis of the deposited data

How the results depend on the processing

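No proteasome gene was called under any alternative: pseudocount 0.1, no filter or a filter at FPKM 5, the most abundant transcript, scaling to the median gene, no trend, the library pair as replicate block, or any library left out. The block left every difference as it was, with a canonical median of -0.036, narrowed the SE, and changed no call; of all genes it called 13 against 0, and leaving out a library, which rests a group on a lone sample assumed to vary like the others, called 7 to 12. The canonical median was 0.018 after scaling and -0.051 with the most abundant transcript, and, chosen after seeing the data, -0.039 without Prosalpha1. Scaling also turned the median of the ubiquitin genes to 0.0032 and that of the assembly and binding partners to 0.018. The filter at FPKM 5 turned the median of the heat shock proteins to -0.014. Leaving out a library left the library pairs unequal between the genotypes, and the canonical median then ranged from -0.35 to 0.29: it was negative without egt17 (-0.32) or wild type 2 (-0.35) and positive without egt8 (0.28) or wild type 1 (0.29). The range was -0.55 to 0.45 for alpha, -0.48 to 0.44 for beta, -0.27 to 0.075 for base, -0.39 to 0.27 for lid genes, -0.031 to 0.35 for heat shock proteins, -0.22 to 0.15 for assembly and binding partners, -0.29 to 0.22 for the Cnc list, -0.35 to 0.35 for COP9, -0.15 to 0.57 for eIF3 and -0.092 to 0.34 for CCT; ubiquitin genes stayed negative.

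The same was run for 14 proteasome genes and 7 others whose genotype difference is given, and it turned the direction of 12 and 5. The ranges were -0.019 to 0.20 for Prosalpha1, -0.00079 to 0.22 for Prosalpha1R, -0.33 to 0.57 for Prosalpha3, -0.69 to 0.42 for Prosalpha4, -0.12 to 0.44 for Prosbeta2, -0.48 to 0.63 for Prosbeta3, -1.05 to 0.66 for Prosbeta5, -0.24 to 0.39 for Prosbeta6, -0.51 to 0.23 for Rpn10, -0.33 to 0.0056 for Rpn13, -0.52 to 0.058 for Rpt6, -0.80 to 0.54 for Rpt3R, -1.38 to 1.17 for Sem1, -0.068 to 0.56 for REG, -0.49 to 0.046 for Rad23, -0.90 to 0.85 for cnc and -0.050 to 1.25 for GstD1. Rpn2, Rpn6 and fzy stayed negative and Hsp67Ba positive in these. The genotypes of each of these genes did not overlap, so leaving out a library could not turn their direction. Their constant sign is therefore no sign of stability. The difference of cnc also turned to 0.17 with the most abundant transcript and to 0.026 after scaling; the cause was not tested. Depth limits mainly the paralogs, whose traces amount to 1 to 3 fragments.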
